A study of Homo sapiens with 15 samples.

Results

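SR proteins and heterogeneous nuclear ribonucleoproteins (hnRNPs) are families of RNA-binding proteins that decide, largely in opposition, which exons of a pre-mRNA are kept. The genes described here were the protein-coding genes whose symbol is SRSF followed by a number, or HNRNP followed by a letter. The rule found 39 genes, 12 SRSF and 27 HNRNP, among the 60649 genes of the count table. They were measured in K-562, a human chronic myeloid leukaemia line in long-term culture, either untreated or after 24 h with martinostat, a histone deacetylase inhibitor, at 1, 0.5, 0.25 or 0.15 µM. Each of the 5 groups had 3 libraries labelled as biological replicates, 15 in all, from bulk poly(A) RNA with 23755510 to 32805574 counts each. No vehicle is named for the untreated cells in the labels. The question here was how the genes of each family responded to each dose, whether the families responded alike, and which members did not follow their family.

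SR proteins carry 1 or more RNA recognition motifs and a tail rich in arginine and serine. Bound to exonic enhancers, they recruit the U1 snRNP and the U2AF heterodimer to nearby splice sites and thereby favour exon inclusion, and several of them also help export mRNA from the nucleus. hnRNPs coat nascent transcripts and frequently silence exons by blocking or looping out splice sites, although members that bind G-rich, C-rich or CA-rich stretches can act in either direction depending on position. Members of both families commonly control their own level by splicing a poison exon into their own transcript, which sends it to nonsense-mediated decay. In the annotation, a transcript labelled for nonsense-mediated decay is listed for all 12 SRSF genes and for 15 of the 27 HNRNP genes, against 39% of the 20046 protein-coding genes. The label does not show that a poison exon is the reason. Counts per gene do not separate productive transcripts from these, so the values below are sums over both.

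Of the 39 genes, 33 had enough counts to be tested, all 12 SRSF and 21 of the 27 HNRNP genes, among 23711 tested genes. The other 6 were close to silent or hidden under another gene. HNRNPCL1, HNRNPCL2, HNRNPCL3 and HNRNPCL4, relatives of HNRNPC, had 9, 4, 1 and 0 counts in the 15 libraries together. HNRNPA1L2, a retrocopy of HNRNPA1, and HNRNPUL2-BSCL2, a read-through gene, had 0 counts, and all of their exon bases lie under exons of other genes.

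Levels of different genes were compared per length, here as CPM (counts relative to the scaled library size) per kilobase of annotated exon. The exon length joins the exons of all annotated transcripts, including those that retain introns. It was 22512 bases in 4 blocks for HNRNPU and 6697 bases in 3 blocks for HNRNPA1. The order below depends on these lengths: HNRNPU was at 1937 CPM but 86.0 CPM per kilobase in untreated cells. In untreated cells HNRNPA1, the archetypal exon silencer, was highest at 373 ± 30.2 CPM per kilobase (SD, n = 3), followed by HNRNPAB at 330.4 ± 19.1, HNRNPF at 193 ± 14.1 and HNRNPC at 169 ± 6.78. The first SR gene in this order was SRSF3, at 105 ± 5.67 CPM per kilobase, followed by SRSF2 at 90.1 ± 7.02 and SRSF7 at 77.8 ± 8.82. The lowest tested members were HNRNPLL at 17.9 ± 2.11, HNRNPUL2 at 7.11 ± 0.578 and SRSF12 at 0.0404 ± 0.0397 CPM per kilobase. SRSF2 and HNRNPUL1, next to each other in this order, differed by less than their SDs. At 1 µM the order had changed, with HNRNPA1 at 241 ± 21.3, HNRNPF at 151 ± 6.88 and HNRNPAB at 95.1 ± 4.25, and with HNRNPH2 in the fourth place at 45.7 ± 2.61.

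Most members of both families fell at every dose. In the quasi-likelihood F test of edgeR, with p adjusted by Benjamini-Hochberg over all tested genes and called under 0.05, 8 of the 12 SRSF genes were lower and 1 was higher at 0.15 µM than in untreated cells, where 19.4% of all tested genes were lower and 31.9% higher. The counts were 9 lower and 1 higher at 0.25 µM (24.8% and 37.4% of all genes), 9 and 1 at 0.5 µM (27.6% and 39.4%), and 10 and 1 at 1 µM (27.5% and 38.8%). Of the 21 tested HNRNP genes, 19, 18, 19 and 19 were lower at the 4 doses and 0 were higher. DESeq2 called 1 HNRNP gene, HNRNPLL, higher at 0.25 µM and 0 at the other doses. Lower calls were more common among well-expressed genes, those averaging 10 CPM or more, as 32 of the 33 members did: 40.2%, 48.7%, 48.7% and 48.4% of these 10128 genes were lower at the 4 doses. All 4 comparisons use the same untreated libraries, so they are not independent of each other. In bulk RNA, fewer cells with a transcript and less of it per cell cannot be told apart, and the p-values measure only the spread between these libraries.

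Both family medians were lower at 1 µM than at 0.15 µM. The median log2 fold change of the SRSF genes was -0.59, -0.79, -0.95 and -1.29 over the 4 rising doses, and that of the HNRNP genes -0.77, -1.30, -1.75 and -1.62. Over all tested genes the median was 0.28, 0.32, 0.34 and 0.32, and over the genes of at least 10 CPM it was -0.28, -0.40, -0.37 and -0.39. Both families had a negative median at every dose under every scaling and filter tried, but its size moved. Without replicate 3 at 0.5 µM the SRSF median at that dose was -1.54, below that at 1 µM. With library totals as the scale the SRSF medians were -0.23, -0.24, -0.52 and -0.94 and the HNRNP medians -0.41, -0.77, -1.38 and -1.27. At 1 µM, 8 SRSF and 15 HNRNP genes were called and more than 2-fold lower. The 3 libraries at 1 µM lay entirely below the 3 untreated ones for 11 SRSF and 19 HNRNP genes and entirely above for SRSF12, where 74.9% of all tested genes had groups that did not overlap in either direction.

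**Figure D1:**
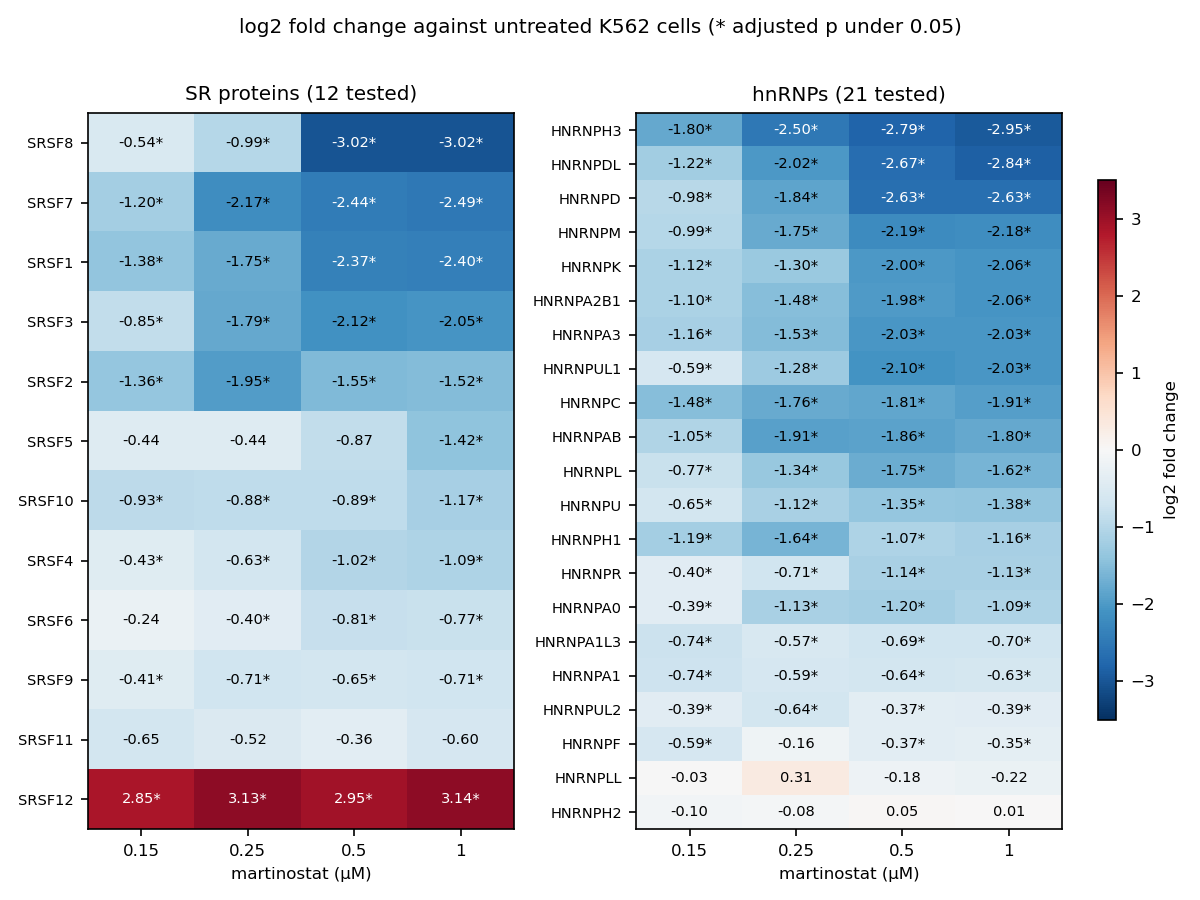
Heat map of the log2 fold change of the 33 tested members (rows) at each martinostat dose against untreated cells (columns, µM), 3 libraries per group; blue is lower, red is higher, and an asterisk marks an adjusted p under 0.05 by edgeR's quasi-likelihood test. Nearly all rows are blue, many of them deepest at 0.5 or 1 µM, SRSF12 is red at 2.85 to 3.14, and HNRNPH2 stays between -0.10 and 0.05.

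A share of all counts is a scaling by library totals, so it depends on the counts of all other genes. By this measure the SRSF genes held 0.214% to 0.239% in untreated libraries and 0.0992% to 0.102% at 1 µM. The HNRNP genes held 1.20% to 1.26% and 0.542% to 0.621%. Neither family's shares overlapped between these groups. The sum of SRSF counts over the sum of HNRNP counts was 0.185 ± 0.00646 (SD, n = 3) in untreated cells and 0.195 ± 0.0279, 0.178 ± 0.0316, 0.184 ± 0.0393 and 0.173 ± 0.0141 at the 4 doses. The libraries of each dose overlapped with the untreated ones. A shift of the balance between the families depended on how members were weighed. With each count divided by the exon length defined above, the ratio was 0.214 ± 0.00919 in untreated cells and 0.182 ± 0.0161 at 1 µM, lower without overlap. With the most abundant member of each family left out it was 0.163 ± 0.00600 and 0.197 ± 0.0133, higher without overlap.

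**Figure D2:**
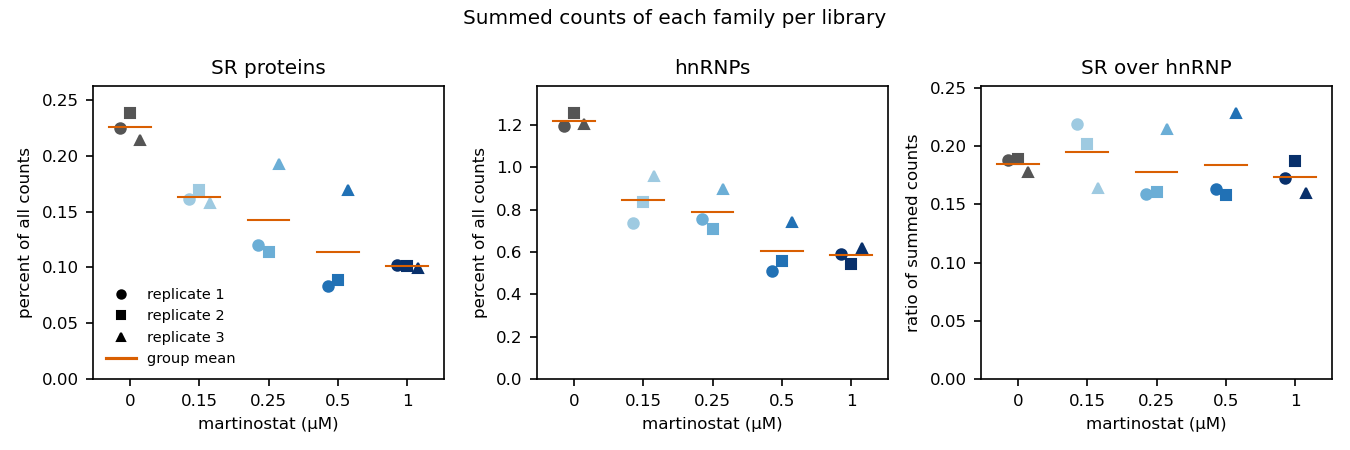
Share of all counts held by the SRSF genes and by the HNRNP genes (percent) and the ratio of their sums, in each of the 15 libraries by martinostat dose (µM); points are libraries and bars are group means. Both mean shares are lowest at 0.5 and 1 µM, while the ratio stays near 0.173 to 0.195 in the group means, with replicate 3 at 0.25 and at 0.5 µM above the other 2 libraries of their dose.

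A pair of libraries stood apart from their groups. Replicate 3 at 0.25 µM and replicate 3 at 0.5 µM had SRSF shares of 0.192% and 0.170% of counts, where the other 2 libraries of each group had 0.114% to 0.120% and 0.0833% to 0.0885%. Their SRSF to HNRNP ratios were 0.214 and 0.229, against 0.159 to 0.160 and 0.158 to 0.163. Their scaling factors, 1.28 and 1.22, were the highest of the 15. Without both libraries, an alternative chosen after the data were seen, 10, 11, 11 and 11 SRSF genes and 19, 18, 18 and 19 HNRNP genes were lower at the 4 doses. The members that these libraries decide are given below.

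Among the SR proteins the deepest falls were in SRSF8, SRSF7 and SRSF1. SRSF8, an intronless copy of SRSF2 that is itself expressed, was at 89.1, 93.6 and 88.4 CPM in untreated cells, 61.5, 64.9 and 60.5 at 0.15 µM, 41.7, 48.2 and 46.6 at 0.25 µM, 11.1, 12.0 and 10.2 at 0.5 µM, and 9.80, 10.7 and 13.0 at 1 µM. It fell in 3 separate steps, with no overlap between any of the first 4 groups, and then stayed level. Its log2 fold change against untreated cells was -0.54 ± 0.13 (SE), -0.99 ± 0.13, -3.02 ± 0.14 and -3.02 ± 0.14 (edgeR, adjusted p = 1.82e-12 at 1 µM). The drop from 0.25 to 0.5 µM alone was -2.03 ± 0.14 (edgeR, adjusted p = 4.41e-09), the only called change between neighbouring doses in either family that exceeded 2-fold. SRSF7, an adaptor for mRNA export with a zinc knuckle beside its RNA recognition motif, was at 291, 356 and 297 CPM in untreated cells, 137, 145 and 129 at 0.15 µM, 64.1, 65.2 and 80.7 at 0.25 µM, 53.6, 55.5 and 65.1 at 0.5 µM, and 56.2, 55.9 and 55.4 at 1 µM. Most of its fall was complete at 0.25 µM, where it was -2.17 ± 0.14, and it was -2.49 ± 0.14 at 1 µM (adjusted p = 2.77e-11, edgeR). SRSF1, the founding SR protein and a regulator of many apoptosis and growth transcripts, was at 253, 278 and 265 CPM in untreated cells, 104, 114 and 88.6 at 0.15 µM, 69.2, 84.5 and 82.1 at 0.25 µM, 52.8, 57.5 and 43.6 at 0.5 µM, and 51.1, 49.9 and 49.9 at 1 µM. It was already at -1.38 ± 0.14 at the lowest dose and at -2.40 ± 0.15 at 1 µM (adjusted p = 5.62e-11, edgeR). For these 3 genes no treated library reached the lowest untreated one.

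Other SR genes stopped falling earlier or fell less. SRSF3, the smallest SR protein, which also acts in export and in 3' end processing, was at -0.85 ± 0.13 at 0.15 µM and -1.79 ± 0.13 at 0.25 µM and was at -2.05 ± 0.13 at 1 µM. SRSF2, which can act on both inclusion and skipping, was lowest at 0.25 µM (-1.95 ± 0.27) and stood at -1.52 ± 0.26 at 1 µM. SRSF4 fell by 0.43 ± 0.14 at 0.15 µM, a call lost without replicate 1 at 0.15 µM (-0.34) or untreated replicate 2 (-0.41), and was at -1.09 ± 0.14 at 1 µM. SRSF10, an SR protein that represses splicing when dephosphorylated, was called lower at all 4 doses, from -0.88 to -1.17, with an SE of 0.31. Its libraries at 0.25 µM were at 114, 132 and 244 CPM and those at 0.5 µM at 99.6, 121 and 262, against 283, 332 and 284 in untreated cells. Its calls at 0.15, 0.25 and 0.5 µM were lost when untreated replicate 2 was left out (-0.85, -0.80 and -0.82) and when replicate 3 at 0.15 µM was left out (-0.85, -0.83 and -0.84).

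SRSF5, a target of growth and insulin signals, depended most on the libraries that stood apart. It was at 125, 139 and 107 CPM in untreated cells, 75.2, 88.8 and 109 at 0.15 µM, 61.7, 52.8 and 159.6 at 0.25 µM, 39.6, 40.0 and 123 at 0.5 µM, and 46.2, 47.4 and 45.2 at 1 µM. Replicate 3 at 0.25 µM was above all untreated ones, and the other 2 were below them. With all libraries the gene was called only at 1 µM (-1.42 ± 0.46, adjusted p = 0.0151, edgeR). Without replicate 3 at 0.25 µM it was at -1.09 at that dose (adjusted p = 0.0471, edgeR), and without replicate 3 at 0.5 µM at -1.64 at that dose (adjusted p = 0.00285, edgeR), both called. With a replicate block it was also called at 0.5 µM (-1.08, adjusted p = 0.0163, edgeR).

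SRSF6, SRSF9 and SRSF11 were the well-expressed SR genes that changed least at 1 µM. SRSF6, a regulator of wound healing and tau splicing, was at 121, 117 and 102 CPM in untreated cells, 97.0, 96.9 and 94.3 at 0.15 µM, 79.9, 79.4 and 98.5 at 0.25 µM, 62.5, 61.6 and 69.8 at 0.5 µM, and 66.4, 69.2 and 63.5 at 1 µM. All treated libraries were below all untreated ones, and the fold change was -0.77 ± 0.13 at 1 µM (adjusted p = 3.05e-05, edgeR). Its call at 0.25 µM (-0.40 ± 0.13) turned to 0.14 with library totals as the scale and to 0.03 with scaling on genes of at least 10 CPM. SRSF9, the closest relative of SRSF1, was at 151, 149.6 and 145 CPM in untreated cells, 109, 113 and 112 at 0.15 µM, 86.1, 92.7 and 94.2 at 0.25 µM, 95.4, 102 and 87.7 at 0.5 µM, and 93.1, 92.7 and 86.7 at 1 µM. It was at -0.71 ± 0.12 at 0.25 and at 1 µM (edgeR, adjusted p = 2.49e-05 at 1 µM), with no overlap between treated and untreated libraries. SRSF11, which bridges U2AF and other SR proteins, was at 223, 257 and 238 CPM in untreated cells, 146, 165 and 147 at 0.15 µM, 141, 116 and 245 at 0.25 µM, 128, 143 and 288 at 0.5 µM, and 151, 156 and 167 at 1 µM. It was not called at any dose (-0.60 ± 0.27 at 1 µM, adjusted p = 0.0641, edgeR), yet its 1 µM libraries were all below the untreated ones. Without replicate 3 at 0.25 µM it was called at 0.15, 0.25 and 1 µM (-0.88 at 0.25 µM), and without replicate 3 at 0.5 µM at all 4 doses (-0.82 at 0.5 µM). Without replicate 2 at 0.25 µM or replicate 1 at 0.5 µM it was called at 0.15 and 1 µM (-0.65 and -0.60). With a replicate block it was called at 0.15, 0.25 and 1 µM (-0.65, -0.58 and -0.61). The spread estimate for this gene is shared by all groups and includes those libraries.

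SRSF12 was the exception of the SR family. It encodes a small SR-related protein that counteracts other SR proteins in splicing assays, and it was hardly expressed in untreated cells, with 2, 2 and 10 counts. It had 38, 42 and 36 counts at 0.15 µM, 56, 41 and 63 at 0.25 µM, 18, 36 and 74 at 0.5 µM, and 41, 58 and 43 at 1 µM. Every treated library was above every untreated one. The fitted log2 fold change was 2.85 ± 0.51, 3.13 ± 0.51, 2.95 ± 0.51 and 3.14 ± 0.51, called higher at all 4 doses. The gene passed the filter on low counts only through its treated libraries, so the call is no support for the difference. These values rest on 14 untreated counts, of which 10 came from 1 library, and the fitted size depends on that library: left out, the change at 1 µM was 4.30. Even at 1 µM the gene was at 0.364 ± 0.0671 CPM per kilobase, where SRSF2 was at 31.3 ± 4.67. A stricter filter, 10 counts or more in every library, removes it.

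**Figure D3:**
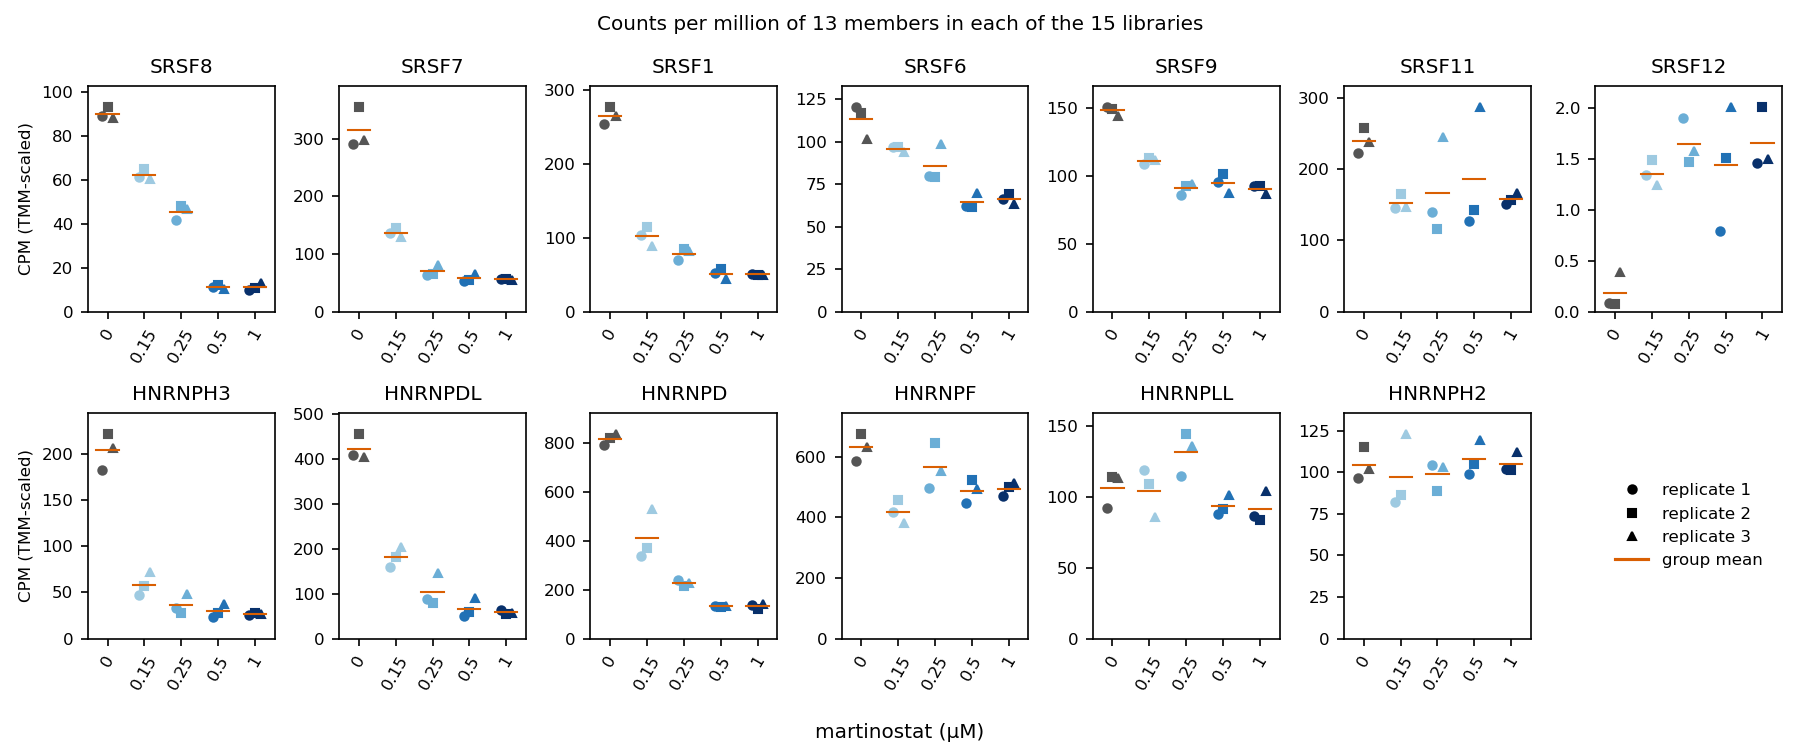
CPM of 13 members in each of the 15 libraries by martinostat dose (µM), each panel on its own axis from 0; markers show the replicate number and the orange line the group mean. SRSF8 drops between 0.25 and 0.5 µM, SRSF7, SRSF1, HNRNPH3, HNRNPDL and HNRNPD fall from the lowest dose on, SRSF12 rises, and HNRNPLL and HNRNPH2 stay near their untreated level.

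Among the hnRNPs, HNRNPH3, HNRNPDL and HNRNPD fell furthest. HNRNPH3, a shorter relative of the G-run binding H and F proteins, was at 183, 222 and 207 CPM in untreated cells, 46.8, 56.8 and 72.1 at 0.15 µM, 32.7, 27.4 and 48.1 at 0.25 µM, 23.1, 27.2 and 37.7 at 0.5 µM, and 25.4, 27.5 and 26.5 at 1 µM. It had the deepest fall of any member at the lowest dose, -1.80 ± 0.21, and was at -2.95 ± 0.22 at 1 µM (adjusted p = 9.80e-10, edgeR). HNRNPDL, a relative of HNRNPD with its own autoregulated poison exon, was at 408, 457 and 404 CPM in untreated cells, 159.5, 181 and 204 at 0.15 µM, 88.1, 79.4 and 145 at 0.25 µM, 50.0, 58.3 and 91.3 at 0.5 µM, and 64.5, 54.1 and 58.1 at 1 µM. It was at -1.22 ± 0.22 at the lowest dose and -2.84 ± 0.24 at 1 µM (adjusted p = 4.29e-09, edgeR). HNRNPD, or AUF1, which binds AU-rich elements and controls mRNA decay, was at 792, 818 and 837 CPM in untreated cells, 337, 371 and 529 at 0.15 µM, 239, 214 and 228 at 0.25 µM, 133, 130.3 and 133 at 0.5 µM, and 136, 119.6 and 139 at 1 µM. Its first 4 groups were in strict order with no overlap, and the change at 1 µM was -2.63 ± 0.17 (adjusted p = 9.16e-11, edgeR). For all 3 genes every treated library was below every untreated one.

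Another 12 hnRNP genes were more than 2-fold lower at 1 µM. HNRNPM was at -2.18 ± 0.19, HNRNPA2B1, a binder of UAG motifs and of m6A-marked RNA, at -2.06 ± 0.23, and HNRNPK, which binds C-rich RNA, at -2.06 ± 0.15. HNRNPA3 and HNRNPUL1 were both at -2.03 ± 0.19, HNRNPC, which masks uridine tracts and cryptic exons, at -1.91 ± 0.15, and HNRNPAB at -1.80 ± 0.16. HNRNPL, which binds CA repeats, was at -1.62 ± 0.14, HNRNPU, a chromatin-bound scaffold protein, at -1.38 ± 0.15, HNRNPH1 at -1.16 ± 0.23, HNRNPR at -1.13 ± 0.15 and HNRNPA0 at -1.09 ± 0.14. These 12 genes were called at all 4 doses and in every alternative at 1 µM. At 0.15 µM the calls of HNRNPA0 (-0.39 ± 0.14) and HNRNPR (-0.40 ± 0.14) were each lost when either of 2 untreated or either of 2 treated libraries was left out, with values of -0.34 to -0.40 and -0.31 to -0.41.

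HNRNPA1 was the most abundant member at every dose and fell early. It was at 2264, 2591 and 2633 CPM in untreated cells, 1125, 1408 and 1957 at 0.15 µM, 1685, 1668 and 1625 at 0.25 µM, 1452, 1728 and 1630.3 at 0.5 µM, and 1614, 1471 and 1757 at 1 µM. It fell at the lowest dose (-0.74 ± 0.18) and not further, with -0.63 ± 0.18 at 1 µM (adjusted p = 0.00543, edgeR), and no treated library reached the untreated range. HNRNPA1L3, a retrocopy of it, followed at -0.74 ± 0.19 and -0.70 ± 0.19. The annotation lists 74 pseudogenes named after HNRNPA1, so fragments may have been shared between these copies and both values are uncertain. HNRNPUL2 had small calls at all doses (-0.39 ± 0.15 at 1 µM, adjusted p = 0.0321, edgeR), and the call at 1 µM was lost without untreated replicate 2 (-0.32), replicate 2 or 3 at 1 µM (-0.37 and -0.35) or replicate 3 at 0.25 µM (-0.35). Its calls at 0.15 and 0.5 µM were kept in 9 and 8 of 24 alternatives. Of its exon bases, 44.3% lie under a read-through gene of the same strand.

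HNRNPF, HNRNPLL and HNRNPH2 were the exceptions of the hnRNP family: the other 18 tested members were called lower at all 4 doses. At 1 µM HNRNPF was about as low as HNRNPUL2, given above. HNRNPF, which binds G-runs and often promotes inclusion of the neighbouring exon, was at 584, 676 and 631 CPM in untreated cells, 416, 457 and 380.3 at 0.15 µM, 497, 646 and 551 at 0.25 µM, 447, 522 and 495 at 0.5 µM, and 469, 499 and 513 at 1 µM. It was lowest at the lowest dose (-0.59 ± 0.14, adjusted p = 0.00208, edgeR), not called at 0.25 µM (-0.16 ± 0.14), and weakly lower at 1 µM (-0.35 ± 0.14, adjusted p = 0.0379, edgeR), where scaling by library totals or on genes of at least 10 CPM turned it to 0.00180 and 0.03. The 1 µM call was also lost without untreated replicate 2 or 3 (-0.30 and -0.36), without any one of the 3 libraries at 1 µM (-0.32, -0.36 and -0.38), or without replicate 3 at 0.25 µM (-0.31), and that at 0.5 µM (-0.37 ± 0.14) without untreated replicate 2 or 3 (-0.32 and -0.37) or replicate 1 at 0.5 µM (-0.31). HNRNPLL, known for skipping CD45 exons in activated lymphocytes, was at 92.1, 114 and 113 CPM in untreated cells, 119, 109 and 85.6 at 0.15 µM, 115, 145 and 136 at 0.25 µM, 88.0, 91.8 and 102 at 0.5 µM, and 86.3, 83.7 and 104 at 1 µM. No dose was called against untreated cells in the main analysis (-0.22 ± 0.15 at 1 µM, adjusted p = 0.211, edgeR). All libraries at 0.25 µM were nevertheless above all untreated ones (0.31 ± 0.15, adjusted p = 0.0861, edgeR). HNRNPLL was called higher at that dose with RLE scaling, library totals, TMM from genes of at least 10 CPM, or DESeq2. The same held with at least 10 counts in every library, with only the libraries compared, and without replicate 3 at 0.15 µM (0.35). HNRNPH2, the X-linked close relative of HNRNPH1, was at 96.3, 115 and 102 CPM in untreated cells, 81.9, 86.5 and 123 at 0.15 µM, 105, 88.7 and 103 at 0.25 µM, 98.8, 105 and 119.5 at 0.5 µM, and 102, 101 and 112 at 1 µM. Its groups overlapped at every dose, and at 1 µM it was at 0.01 ± 0.15 (adjusted p = 0.973, edgeR). With scaling by library totals it was called higher at 0.25 and 0.5 µM, and with scaling on genes of at least 10 CPM at 0.5 and 1 µM. Of its exon bases, 15.8% lie under a read-through gene of the same strand.

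Between neighbouring doses the calls lay between 0.15 and 0.5 µM. From 0.15 to 0.25 µM, 3 SRSF and 9 HNRNP genes were lower and 0 were higher by the same edgeR test, where 7.32% of all tested genes were lower and 4.96% higher. The 3 SRSF genes were SRSF7 (-0.97 ± 0.14), SRSF3 (-0.94 ± 0.13) and SRSF8 (-0.45 ± 0.13). The 9 HNRNP genes ran from HNRNPAB and HNRNPD (-0.86 ± 0.16 each) over HNRNPDL, HNRNPM, HNRNPA0, HNRNPH3, HNRNPUL1 and HNRNPL to HNRNPU (-0.47 ± 0.15), whose call was kept in 6 of 24 alternatives. From 0.25 to 0.5 µM, 4 SRSF and 7 HNRNP genes were lower and 0 higher, against 16% and 14.4% of all genes. Here SRSF8 (-2.03 ± 0.14), SRSF1 (-0.62 ± 0.14), HNRNPUL1 (-0.82 ± 0.18), HNRNPD (-0.78 ± 0.16), HNRNPK (-0.70 ± 0.15) and HNRNPDL (-0.65 ± 0.22) led, SRSF6, HNRNPLL, HNRNPR and HNRNPL were lower by less, and the call of SRSF4 (-0.38 ± 0.14) was kept in 7 of 24 alternatives. With a replicate block, HNRNPA2B1 (-0.52, adjusted p = 0.0381, edgeR) and HNRNPA3 (-0.50, adjusted p = 0.0250, edgeR) were also lower in this step. The counts moved with single libraries: without replicate 3 at 0.15 µM, 7 members were lower in the first step, and without replicate 3 at 0.25 µM 6 were lower and 2, SRSF2 and HNRNPH1, higher in the second, at 0.76 and 0.87. Without replicate 1 or replicate 2 at 0.5 µM, 6 members were lower in that step.

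From 0.5 to 1 µM, 0 members and 0% of all genes were called by edgeR or by DESeq2. At an unadjusted p under 0.05 edgeR found 372 genes (1.57%), none of them a member. From 0.15 to 1 µM, 7 SRSF and 14 HNRNP genes were lower and 0 higher, against 23.1% and 21.5% of all genes. DESeq2 called 1 member, HNRNPF, higher in this comparison, and in the step from 0.25 to 0.5 µM it called HNRNPH1 higher. In the test over the 5 groups, 30 of the 33 members were called, against 73.6% of all genes, and the others were SRSF5, SRSF11 and HNRNPH2.

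Close relatives were then compared inside each library, as the log2 ratio of their counts, which no scaling between libraries can move. There were 16 pairs and 4 doses, 64 comparisons in all. HNRNPL to HNRNPLL, HNRNPU to HNRNPUL1, HNRNPUL1 to HNRNPUL2 and HNRNPR to SYNCRIP were not among the pairs listed in the plan. With 3 libraries against 3, the two-sided exact permutation test cannot go below 0.1, and the smallest adjusted p was 0.145, so none could pass and sizes and overlap are given. The ratio of SRSF2 to its intronless copy SRSF8 was 1.57 ± 0.0660 (SD, n = 3) in untreated cells. It changed by -0.83 at 0.15 µM and -1.01 at 0.25 µM and by 1.38 at 0.5 µM and 1.49 at 1 µM, with no overlap at any dose (exact permutation p = 0.1 each). The parent gene thus lost more at low doses and the copy more at high doses. SRSF1 fell more than SRSF9, with a change in their ratio of -0.97, -1.05, -1.73 and -1.69 over the 4 doses. SRSF3 to SRSF7 shifted by 0.31 to 0.44 and SRSF4 to SRSF6 by -0.20 to -0.33. SRSF5 to SRSF6 shifted by -0.22, -0.21, -0.28 and -0.65, and by -0.61 at 0.25 µM and -0.77 at 0.5 µM without replicate 3 of that dose. SRSF10 to SRSF12, which rests on the few SRSF12 counts, shifted by -3.85 to -4.35.

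Among the hnRNPs some pairs fell together and others parted. HNRNPA3 to HNRNPA2B1 changed by -0.06, -0.05, -0.02 and 0.02, with groups overlapping at every dose and leave-one-out values of -0.09 to 0.09. HNRNPD to HNRNPDL changed by 0.21, 0.23, 0.09 and 0.21, and by 0.49 at 0.25 µM and 0.33 at 0.5 µM without replicate 3 of that dose. HNRNPA1 to HNRNPA2B1, in contrast, rose with dose by 0.36, 0.91, 1.38 and 1.43, and no treated library overlapped the untreated ones. HNRNPH1 to HNRNPH2 changed by -1.06, -1.58, -1.16 and -1.16 and HNRNPL to HNRNPLL by -0.74, -1.65, -1.58 and -1.40, again without overlap, and in each of these pairs the more abundant member was called lower and the other was not. HNRNPF to HNRNPH1 changed by 0.59, 0.75 and 0.80 at 0.15, 0.5 and 1 µM and by more at 0.25 µM, where the values with 1 library left out ran from 1.26 to 1.74. HNRNPAB to HNRNPD (-0.06, -0.07, 0.75 and 0.84) and HNRNPU to HNRNPUL1 (-0.08, 0.16, 0.78 and 0.65) parted only from 0.5 µM on, where the libraries no longer overlapped with the untreated ones. HNRNPUL1 to HNRNPUL2 changed by -0.18, -0.65, -1.76 and -1.65. HNRNPR to SYNCRIP, the hnRNP Q gene, changed by 0.93, 1.59, 2.06 and 2.12, the largest shift among the hnRNP pairs.

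**Figure D4:**
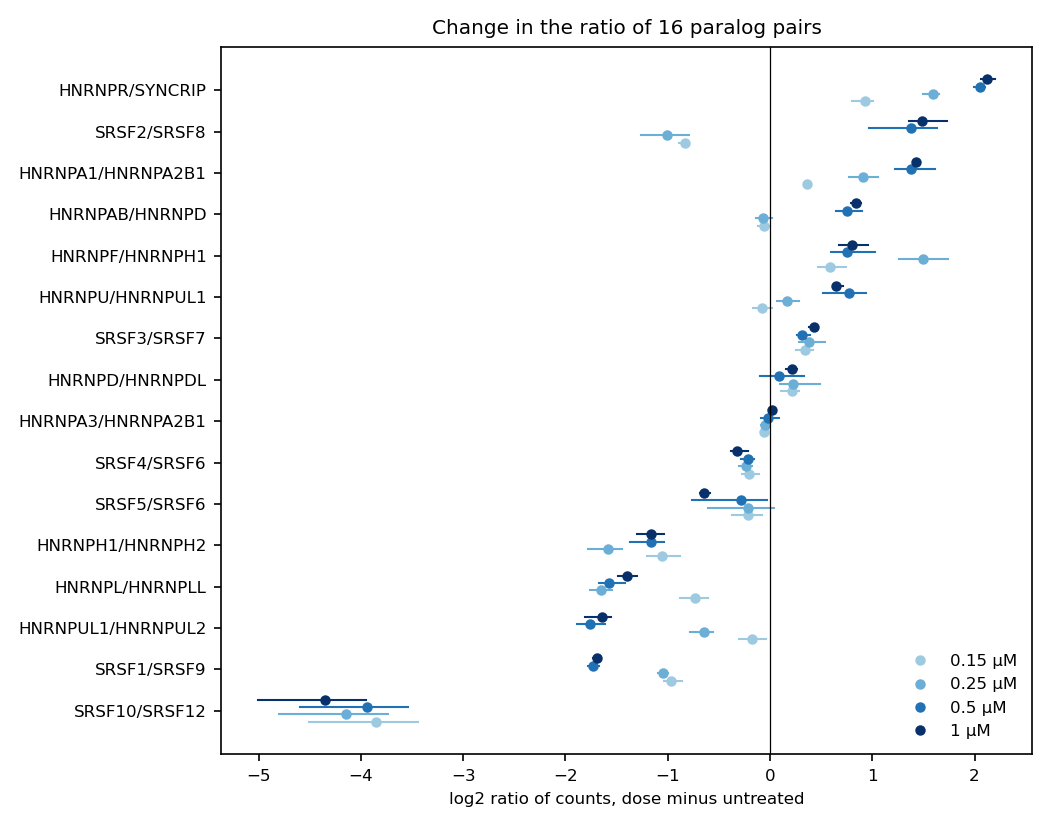
Change in the log2 count ratio of 16 pairs of related genes at each martinostat dose (µM) against untreated cells; dots are differences of group means (3 libraries each) and lines span the values with 1 library left out. SRSF2 to SRSF8 changes sign between 0.25 and 0.5 µM, from -1.01 to 1.38, and HNRNPA3 to HNRNPA2B1 stays between -0.06 and 0.02.

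The stretch of 250 bases before the transcription start was looked up for the members, in the RefSeq promoter table on GRCh38.p14, because the families moved together and these windows show what their members do and do not share. A start was listed for 35 of the 39 genes, not for HNRNPA1, HNRNPA1L3, HNRNPCL3 and SRSF2. For a gene with several starts, the one nearest its annotated 5' end was taken. The windows of the 11 SRSF and 19 HNRNP genes that were tested had a median of 62.4% and 66% G and C and of 26 and 25 CpG, against 58% and 11 over all 35116 listed starts. Shown are the 3 deepest falls among the hnRNPs, SRSF8 and SRSF7 as the deepest of the SR genes, and SRSF12 and HNRNPH2 as exceptions, 5' to 3' on the strand of the gene. Capitals mark any of 6 motifs on either strand: the GC box GGGCGG, the CCAAT box, the ETS core CCGGAA, the E box CACGTG, the TATA box TATAAA and the cyclic AMP response element TGACGTCA; none of them contains another, but neighbouring matches can overlap.
SRSF8: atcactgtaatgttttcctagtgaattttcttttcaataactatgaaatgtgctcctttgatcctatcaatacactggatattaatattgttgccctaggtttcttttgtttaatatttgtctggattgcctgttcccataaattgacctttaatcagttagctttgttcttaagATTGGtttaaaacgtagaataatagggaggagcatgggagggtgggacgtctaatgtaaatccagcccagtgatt
SRSF7: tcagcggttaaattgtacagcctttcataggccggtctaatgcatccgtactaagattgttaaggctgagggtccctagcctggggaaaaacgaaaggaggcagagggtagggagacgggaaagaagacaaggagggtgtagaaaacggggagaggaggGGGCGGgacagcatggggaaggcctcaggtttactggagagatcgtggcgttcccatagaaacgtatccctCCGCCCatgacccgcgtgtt
SRSF12: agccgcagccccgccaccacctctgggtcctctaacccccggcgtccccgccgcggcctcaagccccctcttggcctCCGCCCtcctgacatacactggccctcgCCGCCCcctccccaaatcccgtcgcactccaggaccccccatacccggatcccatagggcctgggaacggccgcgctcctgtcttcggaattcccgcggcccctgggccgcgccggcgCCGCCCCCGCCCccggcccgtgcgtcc
HNRNPH3: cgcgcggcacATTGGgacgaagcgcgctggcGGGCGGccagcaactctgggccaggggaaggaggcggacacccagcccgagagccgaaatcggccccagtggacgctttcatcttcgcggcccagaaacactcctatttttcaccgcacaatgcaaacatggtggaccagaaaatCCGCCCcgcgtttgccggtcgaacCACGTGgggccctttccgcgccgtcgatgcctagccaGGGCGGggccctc
HNRNPDL: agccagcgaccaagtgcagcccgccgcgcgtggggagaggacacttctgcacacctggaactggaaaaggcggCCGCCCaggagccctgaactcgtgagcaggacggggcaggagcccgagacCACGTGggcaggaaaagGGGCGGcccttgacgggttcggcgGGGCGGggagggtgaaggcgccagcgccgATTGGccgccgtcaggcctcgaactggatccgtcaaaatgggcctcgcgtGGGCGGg
HNRNPD: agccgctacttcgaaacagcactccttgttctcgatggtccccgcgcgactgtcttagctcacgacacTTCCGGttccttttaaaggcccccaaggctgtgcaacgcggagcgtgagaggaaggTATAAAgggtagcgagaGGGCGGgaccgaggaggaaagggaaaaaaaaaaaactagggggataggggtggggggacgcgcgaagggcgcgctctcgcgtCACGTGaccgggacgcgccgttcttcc
HNRNPH2: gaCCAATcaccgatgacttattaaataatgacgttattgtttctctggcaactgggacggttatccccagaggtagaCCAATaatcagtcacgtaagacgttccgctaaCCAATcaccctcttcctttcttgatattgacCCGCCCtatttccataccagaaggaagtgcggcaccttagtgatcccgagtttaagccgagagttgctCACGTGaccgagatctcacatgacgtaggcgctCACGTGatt

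These windows lie at chr11:95066669-95066918 on the plus strand (SRSF8), chr2:38751495-38751744 on the minus strand (SRSF7), chr6:89118072-89118321 on the minus strand (SRSF12), chr10:68331443-68331692 on the plus strand (HNRNPH3), chr4:82430463-82430712 on the minus strand (HNRNPDL), chr4:82373992-82374241 on the minus strand (HNRNPD) and chrX:101407972-101408221 on the plus strand (HNRNPH2). All are upstream of the listed start. The listed starts of HNRNPH3 and HNRNPD are 519 and 512 bases inside the annotated gene, so their windows lie within it. Among the windows counted but not shown, the starts of SRSF9 and SRSF5 are 26198 and 40242 bases inside. SRSF8 stood out from the other members, with 35.2% G and C and 2 CpG, the lowest of these 11 SR genes. SRSF12, the gene that rose, had 75.6% G and C, the highest. The E box was present in 6 of the 19 HNRNP windows (HNRNPA3, HNRNPD, HNRNPDL, HNRNPH2, HNRNPH3 and HNRNPM) and in 0 of the 11 SRSF windows, against 6.34% of all listed starts. Among the hnRNPs it was present in the 3 that fell furthest and also in HNRNPH2, which was level. The GC box was in 15 HNRNP and 4 SRSF windows (42.6% of all starts) and the CCAAT box in 14 and 2 (32%). The ETS core was in 4 and 2 (14.5%), the TATA box in 3 and 1 (10.7%), and the cyclic AMP response element in 0 and 0 (1.65%). The values over all listed starts count every start of a gene, tested or not, whereas the members above have 1 start each. Counted in that way, the members have 35 HNRNP and 14 SRSF starts. The E box was in 7 and 0 of these, the GC box in 23 and 5 and the CCAAT box in 21 and 3. The ETS core was in 6 and 2 and the TATA box in 3 and 3. Windows of tested or well-expressed genes alone were not compared. A match is a match of letters only.

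The neighbours of these families in the splicing machinery were read from 5 lists, chosen with earlier results of these data known. Of 9 other splicing activators with arginine and serine rich domains, 9 were lower and 0 higher at 1 µM by the same edgeR test, from PNN at -2.02 ± 0.49 and TRA2B at -1.66 ± 0.13 to ACIN1 at -0.73 ± 0.16 and SON at -0.51 ± 0.15. Over all tested genes 27.5% were lower and 38.8% higher at this dose, and 48.4% of the well-expressed genes were lower. Of 8 hnRNPs with other symbols, 7 were lower and 1 higher. SYNCRIP (-3.25 ± 0.16) and RBMX (-2.30 ± 0.14), the X-linked hnRNP G, fell furthest, RALY was at -0.64 ± 0.21, and CIRBP, a cold-inducible RNA-binding protein, rose by 0.42 ± 0.15. Of 19 genes of the early spliceosome, 18 were lower and 0 higher, from SNRPF (-2.81 ± 0.16), a ring protein of the snRNPs, and U2AF2 (-2.75 ± 0.13), the reader of the polypyrimidine tract, to SF3B2 (-0.49 ± 0.18). SNRPD2 was at -0.05 ± 0.28 and not called. The 18 include U2AF1 at a low level, 2.58 to 3.86 CPM in untreated libraries and 1.46 to 2.02 CPM at 1 µM.

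The enzymes that phosphorylate or import SR proteins moved in both directions. Of these 10 genes, 4 were lower and 2 higher at 1 µM, where 27.5% of all tested genes were lower, 38.8% were higher and 48.4% of the well-expressed ones were lower. SRPK1, the main cytoplasmic SR protein kinase, fell at the lowest dose (-1.34 ± 0.14) and stood at -1.37 ± 0.14 at 1 µM, while its relative SRPK2 was at 0.08 ± 0.12 at 0.15 µM and rose by 0.77 ± 0.12 at 1 µM. Among the nuclear CLK kinases, CLK3 rose by 0.57 ± 0.14, and CLK1 (-0.76 ± 0.38), CLK4 (-0.53 ± 0.28) and CLK2 (-0.17 ± 0.17) were not called, nor was SRPK3 (0.40 ± 0.51). The 1 µM libraries of CLK1 (15.5 to 18.6 CPM) were nevertheless all below the untreated ones (26.1 to 32.9 CPM). So were those of CLK4 (9.41 to 10.3 against 12.6 to 17.5 CPM), where 74.9% of all tested genes did not overlap. Replicate 3 at 0.25 and 0.5 µM was at 46.9 and 35.2 CPM for CLK1 and at 21.0 and 18.2 CPM for CLK4. The shared spread estimate includes those libraries. PRPF4B (-1.58 ± 0.32), DYRK1A (-0.70 ± 0.16) and the importer TNPO3 (-0.96 ± 0.15) were lower. Of 10 genes of nonsense-mediated decay, the pathway that removes poison-exon transcripts, 7 were lower and 0 higher, against the same 27.5% (48.4% of the well-expressed genes) lower, led by SMG9 (-1.81 ± 0.15) and SMG5 (-1.69 ± 0.14). SMG6, the endonuclease of the pathway, was at 0.31 ± 0.16 and SMG1 at 0.24 ± 0.28, neither called.

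Other measures moved with the dose beside these falls. The summed level of 5 erythroid markers of K-562 (HBG1, HBG2, HBE1, HBZ and GATA1) was 1805 to 1943 CPM in untreated libraries and 308 to 519.9 CPM at 1 µM, with none of them at 0 in any library. Of these, GATA1, HBZ and HBG2 were lower, HBG1 (126 ± 19.5 and 95.3 ± 42.2 CPM) was not called, and HBE1 was higher at a low level (0.170 ± 0.0950 and 0.491 ± 0.251 CPM). The sum of 9 markers of lymphoid cells, monocytes and fibroblasts was 32.6 to 39.0 CPM in untreated libraries and 313 to 499 CPM at 1 µM. Nearly all of the difference was COL1A1, which averaged 4.36 ± 0.954 CPM untreated and 398 ± 94.4 CPM at 1 µM. LYZ, at 7.81 ± 0.844 and 1.76 ± 0.516 CPM, and COL1A2, at 18.9 ± 2.12 and 9.70 ± 2.32 CPM, were lower. MS4A1, a B cell marker, had 0 counts in the untreated libraries and 0.0230 ± 0.0399 CPM at the top dose. The part of these in the results above was not tested. Several members also share exon bases with other genes. The shares were 53.6% for HNRNPA3, 43.6% for SRSF9 and 27.7% for SRSF2 with genes of the opposite strand, and 32.7% for SRSF1 with genes of the same strand. How fragments in such stretches were assigned was not stated, so levels of these genes are less certain than those of the others.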

How the data were processed

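Messenger RNA of K-562 cells was sequenced in 15 libraries, 3 for each of 5 doses. According to the submitters' processing notes, reads were handled with Trim Galore 0.6.10, HISAT2 2.2.1, SAMtools 1.21 and featureCounts 1.5.3 on hg38, and the authors deposited raw counts per gene, not normalised. Whether counting used strand was not given in the sources used here. The FPKM tables of single libraries were not used here. Gene symbols and positions came from GENCODE 44, in which 99.7% of the gene identifiers had a symbol with the version ignored.

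The deposited counts entered edgeR 4.0.16 (R 4.3.3). After filterByExpr, 23711 genes remained. Scaling was by TMM, the trimmed mean of M values. A single model over all 15 libraries had only the group as a term, and comparisons used the quasi-likelihood F test in its robust form, adjusted by Benjamini-Hochberg over all tested genes and called at an adjusted p under 0.05. SE is the absolute log2 fold change over the square root of F. CPM used the TMM-scaled library sizes. The biological coefficient of variation was 0.228. Totals of 23755510 to 32805574 counts per library make counting error small for all tested members but SRSF12. Within groups, the correlation of log2 CPM across genes, which are not independent replicates, was 0.957 to 0.987, and all pairs differed by more than sampling noise (chi-square at least 6.49 per degree of freedom). Ratios of related genes used counts plus 1 and an exact permutation test (scipy 1.17.1). Scripts were tested on simulated data. Between 0.25 and 0.5 µM, departures from the group means correlated most for replicate 3 of both doses, at 0.579. Replicates 1 and replicates 2 of these doses correlated at 0.266 and 0.268, and the other 27 same-numbered pairs were all below 0.1. With unequal numbers, replicate 2 at 0.25 µM and replicate 1 at 0.5 µM reached 0.236. Replicate 1 at 0.25 µM and replicate 2 at 0.5 µM were at 0.0944. The values for replicates 1 and 2 therefore do not show a pairing by number, and the labels name no shared source.

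Members with values in every library were, per family and with a mean of at least 10 CPM, the 3 highest and the 3 lowest at 1 µM, and those called against their family's direction; SRSF5, SRSF10 and HNRNPA1 were added after their values were seen. For the other lists, the 2 highest and 2 lowest at 1 µM, all SR protein kinases, and U2AF1 for its low level are named. Members and lists were chosen with earlier results of these data known. Of the erythroid markers chosen, 1 is not reported here. Alternatives were other scalings (RLE, library totals, TMM from genes of at least 10 CPM), other filters (none, at least 10 counts in every library), only the libraries compared, DESeq2 1.42.0, a replicate block, and each library left out in turn.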

Additional observations from a re-analysis of the deposited data

How the results depend on the processing

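Across 24 alternatives, both families kept a negative median at every dose. Library totals raised the median log2 fold change of all genes by 0.36, 0.53, 0.38 and 0.35 at the 4 doses and TMM from genes of at least 10 CPM by 0.26, 0.42, 0.41 and 0.38, so that 81.9%, 79.2%, 70.2% and 69.3%, or 75.8%, 75.3%, 71.1% and 70.1%, of all calls were higher, against 62.2%, 60.1%, 58.8% and 58.5% in the main analysis. With library totals 4 SRSF and 11 HNRNP genes were lower at 0.15 µM, 5 SRSF genes were lower and 3 HNRNP genes higher at 0.25 µM, 1 HNRNP gene was higher at 0.5 µM, and from 0.15 to 0.25 µM 7 members were lower and 1 higher. With TMM from genes of at least 10 CPM, 4 SRSF genes were lower at 0.15 µM, 1 HNRNP gene was higher at 0.25, 0.5 and 1 µM and from 0.15 to 1 µM, and 2 members were higher from 0.15 to 0.25 µM. RLE scaling gave 1 higher HNRNP gene at 0.25 µM and 1 higher member from 0.15 to 0.25 µM. With at least 10 counts in every library, which removes SRSF12, 0 SRSF genes were higher at any dose, 1 HNRNP gene was higher at 0.25 µM and from 0.15 to 1 µM, and 2 members were higher from 0.15 to 0.25 µM. DESeq2 gave the same 1, 1 and 2, and 1 higher member from 0.25 to 0.5 µM, as did no filter on low counts (1). With only the libraries compared, 1 HNRNP gene was higher at 0.25 µM, and 6 and 5 members were lower in the steps from 0.15 to 0.25 and from 0.25 to 0.5 µM. Without replicate 3 at both 0.25 and 0.5 µM, 1 HNRNP gene was higher from 0.15 to 1 µM and 1 member was higher in each of these steps.

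The direction of these single values turned, counting a turn only where the value was called before or after. HNRNPF was at 0.37, 0.0146 and 0.00180 with library totals at 0.25, 0.5 and 1 µM, and at 0.0446 and 0.0294 with TMM from genes of at least 10 CPM at 0.5 and 1 µM. HNRNPH2 was at 0.45 with library totals at 0.25 µM. HNRNPUL2 at 0.5 µM was at 0.000601 and 0.0374, and SRSF6 at 0.25 µM at 0.14 and 0.0265, under the same scalings. SRSF5 from 0.15 to 0.25 µM was at -0.65 without both of these libraries (adjusted p = 0.00416, edgeR). The summed SRSF to HNRNP ratio in untreated cells was 0.214 per kilobase and 0.163 without the most abundant members, and at 1 µM 0.197 without them.

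With 1 library left out, 0 to 1 HNRNP genes were higher at 0.25 µM and from 0.15 to 1 µM, the 1 without replicate 3 at 0.15 µM. From 0.15 to 0.25 µM, 0 to 1 members were higher and 7 to 14 lower, and from 0.25 to 0.5 µM 0 to 2 were higher and 6 to 13 lower. With a replicate block, 9, 10, 10 and 11 SRSF genes and 18, 18, 18 and 19 HNRNP genes were lower at the 4 doses. Besides the calls gained that are given above for SRSF5, SRSF11, HNRNPA2B1 and HNRNPA3, HNRNPUL2 lost its calls at 0.15 and 0.5 µM (-0.39 and -0.37), HNRNPU its call from 0.15 to 0.25 µM (-0.47) and SRSF9 its call from 0.15 to 1 µM (-0.30), where SRSF5 gained one (-0.93). The block changed no other call of a member. The causes of these changes were not tested, other than the removal of SRSF12. Depth limits SRSF12 and the HNRNPCL genes.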
